A study of Mus musculus with 12 samples.

Results

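The genes described here are 39 epithelial genes of the mouse: keratins, tight junction genes, adherens junction and adhesion genes, desmosome genes, regulators of splicing and transcription, and intestinal or apical genes. They were taken by name from the arrays, with every probe that carried the name of a member, and made up 39 of 34787 names. Together they had 54 probes, with 1 probe for 27 genes, 2 for 9 and 3 for 3. RNA from 12 samples was measured, 1 Agilent array each, in 4 groups of 3. RAW264.7 is a mouse macrophage-like line and CT-26 a mouse colon carcinoma line. The RAW264.7 groups had received either the PLKO vector as control or a short hairpin RNA against ABHD5. The CT-26 groups had been primed by control or by ABHD5-knockdown RAW264.7 cells, and the labels give ABHD5-KD as the genotype of the latter group too. How priming was done, for how long, and whether the cells were separated afterwards is not given in the sources used here. Nor do the labels say whether replicates were separate cultures, so p-values measure only the spread between these samples. The design asked how silencing of Abhd5 in macrophages changed those cells and the tumour cells primed by them.

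Epithelial cells adhere through tight junctions, which seal the space between neighbours, adherens junctions, which couple cadherins to actin through catenins, and desmosomes, which couple cadherins to keratin filaments. Keratins assemble as pairs of a type II and a type I protein, such as Krt8 with Krt18 in simple epithelia. Transcriptional repressors of the Snail, ZEB and Twist families switch many of these genes off when cells take on a mesenchymal state, and Snail and ZEB proteins bind E-boxes in promoters. Cdh1, the gene of E-cadherin, is the textbook target of these repressors.

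Promoters of 27 of the 39 genes were found in the RefSeq promoter table (GRCm38.p6), read here over the 250 bases before each start. Those of Krt19, Cdh1, Ctnna1, Dsg2, Dsc2, Pkp2, Pkp3, Esrp1, Esrp2, Grhl2, Cdx1 and Klf5 were not matched. The E-box CACCTG was searched on both strands, where it reads CACCTG or CAGGTG, and no other motif was searched. It stood in a promoter of 13 of the 27 genes (48.1%), against 5252 of 27025 genes in the table (19.4%). A match describes these letters in this window and not a site in use. A few promoters are shown because their genes mark the range of the levels described further on. Epcam and Elf3 had no call above background on all arrays of a CT-26 group, and Krt18 and Krt20 were well above background on every CT-26 array. The E-boxes are in capitals, and each run reads 5′ to 3′ on the strand of its gene.
Epcam, chr17:87635729-87635978, plus strand: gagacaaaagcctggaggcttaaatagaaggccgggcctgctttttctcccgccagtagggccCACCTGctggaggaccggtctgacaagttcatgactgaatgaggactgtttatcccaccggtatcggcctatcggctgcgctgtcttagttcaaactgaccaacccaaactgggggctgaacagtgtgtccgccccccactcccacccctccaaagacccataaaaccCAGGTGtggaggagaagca
Elf3, chr1:135258473-135258722, minus strand: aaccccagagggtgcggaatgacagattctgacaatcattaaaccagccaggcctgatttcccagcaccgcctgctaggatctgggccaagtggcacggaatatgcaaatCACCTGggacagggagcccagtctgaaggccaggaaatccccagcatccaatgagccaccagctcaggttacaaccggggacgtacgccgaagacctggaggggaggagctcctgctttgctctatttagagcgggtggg
Krt18, chr15:102027966-102028215, plus strand: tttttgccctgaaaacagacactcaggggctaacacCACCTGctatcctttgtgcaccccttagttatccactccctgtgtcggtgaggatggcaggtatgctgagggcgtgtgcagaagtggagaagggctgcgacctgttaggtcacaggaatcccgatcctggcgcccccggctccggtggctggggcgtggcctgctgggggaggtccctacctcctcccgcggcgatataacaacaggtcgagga
Krt20, chr11:99438154-99438403, minus strand: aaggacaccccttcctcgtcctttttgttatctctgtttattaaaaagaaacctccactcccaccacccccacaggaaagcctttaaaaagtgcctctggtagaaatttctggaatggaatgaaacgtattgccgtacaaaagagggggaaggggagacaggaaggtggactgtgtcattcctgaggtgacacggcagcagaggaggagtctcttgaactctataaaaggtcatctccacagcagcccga
Epcam held 2 E-boxes, which began 187 and 19 bases before the start. Elf3 held 1 at 140 bases and Krt18 held 1 at 214 bases, while the Krt20 window held none. The partner gene Krt8 held 1 at 111 bases. These picks do not stand for the whole set. Cldn1, Cldn2, Cldn3, Cgn, Cdx2, Dsp and Vil1 held none, and also had no call on all arrays of a CT-26 group. Cldn4, Cldn7, Krt5, Krt7, Krt8, Lgals4 and Tjp3 held the E-box and were well above background on every CT-26 array. Cldn12, Ctnnb1, Ctnnd1, Krt14 and Tjp1 held none and were also well above background on every CT-26 array. Hnf4a, Muc1 and Ocln held the E-box and Jup held none, and each was below background on some CT-26 arrays. Whether the E-box goes with the level of a gene was not tested.

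Levels are log2 signals relative to the 75th percentile of the array, so that 0 is the level of that percentile. They compare arrays for the same probe, never different probes. A probe is termed below background here unless the scanner software called it well above background. Between 56.5% and 77.3% of spots reached this, with the lowest shares on RAW264.7 control replicates 1 and 2 (56.5% and 57.8%), which lay on slide 1. Control replicate 3 and the 3 knockdown arrays lay on slide 2, and all 6 CT-26 arrays on slide 3, so cell line and slide cannot be told apart. Replicates of a group correlated at 0.974 or above across probes. Abhd5, the co-activator of the lipase ATGL and the target of the hairpin, was at 1.38, 1.93 and 1.52 in RAW264.7 controls and at 0.25, 0.23 and 0.39 after knockdown. That was a change of -1.32 ± 0.20 (SE, n = 3 per group, limma adjusted p = 0.00344). A fit that took the slide as a block gave -1.23 (adjusted p = 0.0554), which lost the call. Of the other Abhd5 probes, 1 fell by 1.295 (limma adjusted p over probes 0.0157) and 1 by 0.78 (0.0759), which did not pass. In CT-26 cells Abhd5 was at 0.98, 0.81 and 0.83 after control priming and at 0.90, 0.83 and 1.12 after knockdown priming. These groups overlapped, with a difference of 0.07 ± 0.15 (limma adjusted p = 0.776). The other Abhd5 probes gave -0.48 and -0.30 there, and neither passed (limma adjusted p over probes 0.378 and 0.271).

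In control-primed CT-26 cells 25 of the 39 genes were well above background on all 3 arrays by at least 1 probe, and in knockdown-primed cells 22. These shares were 64.1% and 56.4%, against 71.4% and 64.0% of all names. The genes that reached background on all control-primed arrays and not on all knockdown-primed ones were Ocln (3 against 0 arrays), Jup (3 against 1) and Muc1 (3 against 2). The lowest signal called well above background was itself higher on the knockdown-primed arrays, at log2 levels of -6.01, -5.49 and -5.00, than on the control-primed ones, at -6.59, -7.23 and -6.22. The part of this shift in the lost calls was not tested. In RAW264.7 cells 21 genes were detected on all control arrays and 28 on all knockdown arrays (53.8% and 71.8%, against 61.4% and 72.7% of all names). There the same limit was -4.81 and -4.60 on slide 1 and between -6.77 and -6.32 on slide 2, and its part was likewise not tested. A looser scanner flag marks signals that are positive and significant. By it the CT-26 shares were 87.18% and 82.05%, above the 82.68% and 77% of all names. In RAW264.7 cells they were 69.23% and 84.62%, against 76.83% and 83.94%. Ocln, Jup and Muc1 carried the looser flag on every CT-26 array.

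Several defining epithelial genes were near background in CT-26 cells. Cdh1 was not well above background on any of the 6 CT-26 arrays, with control-primed levels of -8.26, -7.72 and -8.12 and knockdown-primed levels of -7.83, -7.41 and -7.13. Cldn1, Dsp (desmoplakin, which anchors keratins to desmosomes), the intestinal transcription factor Cdx1, the epithelial transcription factor Elf3 and the brush border gene Vil1 were also called on 0 of the 6. Epcam, an adhesion molecule of simple epithelia, was called on 1 control-primed array and on none of the knockdown-primed ones. Cldn2, Cldn3, Cgn (cingulin) and Cdx2 reached background on at most 2 CT-26 arrays of a group, and these 4 with Cldn1, Cdh1, Dsp and Cdx1 were the 8 genes tested in no comparison. By the looser flag Epcam, Cldn2, Cldn3 and Cgn were called on every CT-26 array and Cldn1 on none. Cdh1 carried it on 2 control-primed arrays and 1 knockdown-primed array. Arrays measure RNA, and whether fewer cells or less RNA per cell underlies a low bulk level cannot be told apart.

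**Figure D1:**
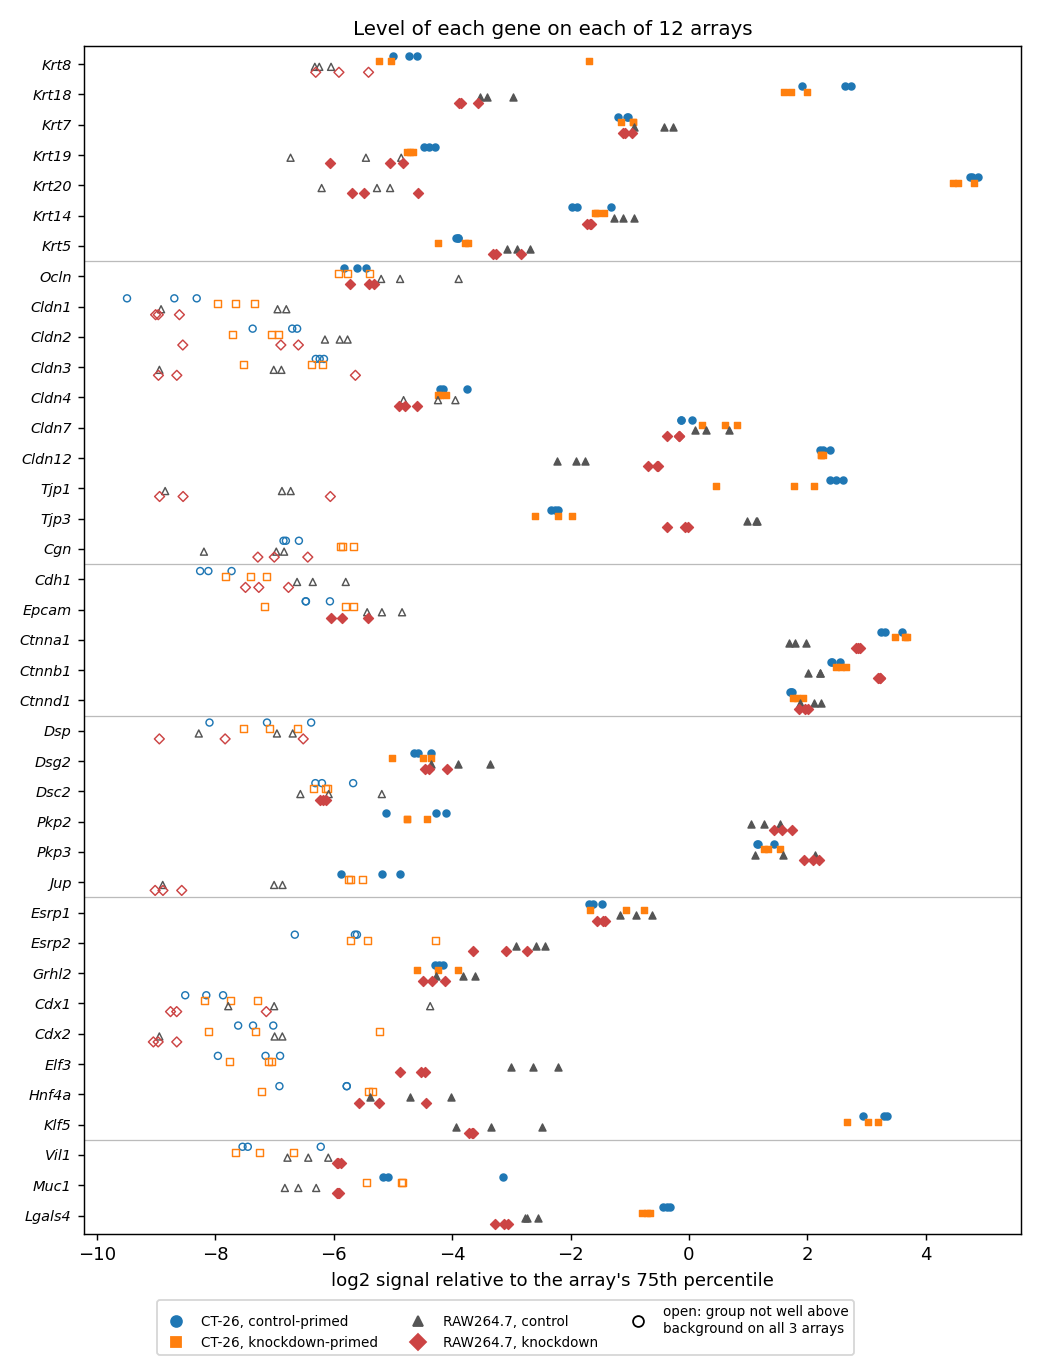
Log2 signal relative to the 75th percentile of the array (horizontal axis) for each of the 39 genes (rows, with grey lines between the role groups). Each point is 1 array, and an open symbol marks a group that was not well above background on all 3 arrays. Krt20, Tjp1, Klf5 and Krt18 separate the CT-26 arrays from the RAW264.7 arrays, with Pkp2 and Elf3 the other way round.

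None of the 25 genes tested in CT-26 cells passed the test between the priming groups. At a limma adjusted p under 0.05, 0 rose and 0 fell, where 6.32% of the 24824 genes tested passed (3.14% higher and 3.17% lower). That share moved between 0.371% (without control-primed replicate 3) and 12.1% (without knockdown-primed replicate 1) when 1 array was left out, and was 1.07% and 0.935% without control-primed replicate 2 and knockdown-primed replicate 3 and 2.46% without knockdown-primed replicate 2. The smallest limma adjusted p-values, between 0.0749 and 0.144, were those of Cldn7, Krt18, Tjp1 and Lgals4, and none of them passed. The changes ranged from -1.04 to 0.80 on the log2 scale with a median of -0.04, against a median of 0.11 over all genes tested. The groups did not overlap for 5 of the 25 genes, against 36.1% of all genes tested. For 20 genes the 95% interval lay within a 2-fold change in either direction. For Krt8, Krt18, Cldn7, Tjp1 and Muc1 it reached past 2-fold on 1 side or both. In simulated data for this comparison 100 of 24824 genes were changed by 1 log2 unit and 100 by 2. There 48.0% of the changes of 1 log2 unit passed the test. In the data 1568 genes passed, so the adjusted threshold differs and that share is not the power for these 25 genes. Without control-primed replicate 1, Krt18 passed (-0.91, adjusted p = 0.0333). Without knockdown-primed replicate 1, Cldn7 (0.77, adjusted p = 0.0341) and Esrp1 (0.68, adjusted p = 0.0463) passed.

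Among the keratins, all 7 were tested in CT-26 cells and none passed. Krt20, a type I keratin of intestinal epithelium, was at 4.78, 4.88 and 4.75 in control-primed cells and at 4.46, 4.54 and 4.81 in knockdown-primed cells. Those groups overlapped. Krt18 was at 1.91, 2.64 and 2.73 against 1.60, 1.73 and 1.99. Its control-primed replicate 1 lay within the range of the knockdown-primed arrays, and the difference of -0.65 ± 0.23 (SE, n = 3 per group) had a limma adjusted p of 0.105. Krt8, the type II partner of Krt18, was at -5.00, -4.60 and -4.74 against -5.24, -5.02 and -1.69. Knockdown-primed replicate 3 stood far above the other 5 arrays, and without it the difference of 0.80 turned to -0.35. A further Krt8 probe read -4.78, -4.76 and -4.83 against -5.23, -4.97 and -4.86, and showed no such value on that array. Krt19, another type I keratin of simple epithelia, was lower in every knockdown-primed sample, at -4.72, -4.66 and -4.76 against -4.48, -4.30 and -4.40, with a difference of -0.32 and an adjusted p of 0.173. Krt7, Krt14 and Krt5 differed by 0.08, 0.20 and -0.01.

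Of the 10 tight junction genes 6 were tested in CT-26 cells. Tjp1, the scaffold protein ZO-1, was at 2.48, 2.38 and 2.60 in control-primed cells and at 1.77, 0.46 and 2.11 in knockdown-primed cells. Every knockdown-primed array lay below every control-primed one, and replicate 2 lay lowest. The difference of -1.04 ± 0.36 (95% interval -1.85 to -0.22, limma adjusted p = 0.101) did not pass, and without that replicate it was -0.55 (adjusted p = 0.136). Cldn7, a claudin of intestinal epithelium, went the other way, at 0.06, -0.13 and -0.13 against 0.22, 0.61 and 0.81, again without overlap. Its difference of 0.61 ± 0.18 had the smallest adjusted p of the genes tested (0.0749), while its second probe gave -0.07. Cldn12 was at 2.21, 2.26 and 2.39 against 2.24, 2.27 and 2.24, with a difference of -0.04 and an interval from -0.37 to 0.28. Cldn4, Tjp3 (the scaffold ZO-3) and Ocln (occludin) differed by -0.15, 0.01 and -0.06. The second Cldn4 probe went the other way, by 0.58 without overlap, and did not pass (limma adjusted p over probes 0.083).

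Of the 5 adherens junction and adhesion genes the 3 catenins were tested in CT-26 cells. Ctnna1, alpha-catenin, which links the cadherin complex to actin, was at 3.25, 3.30 and 3.59 against 3.47, 3.68 and 3.66. Ctnnb1, beta-catenin, which binds cadherins and also carries Wnt signals, was at 2.55, 2.42 and 2.40 against 2.65, 2.49 and 2.56. Both pairs of groups overlapped. Ctnnd1 (p120-catenin, which stabilises cadherins at the membrane) differed by 0.12 without overlap and with a limma adjusted p of 0.602. The 4 desmosome genes tested, Dsg2, Pkp2, Pkp3 and Jup, differed by -0.09, -0.15, 0.13 and -0.35.

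Among regulators and intestinal genes in CT-26 cells, Klf5, a transcription factor of intestinal crypt cells, was at 2.95, 3.29 and 3.34 in control-primed cells and at 2.66, 3.02 and 3.19 in knockdown-primed cells. The groups overlapped, and the difference was -0.23. Esrp1, a splicing factor that maintains epithelial isoforms, differed by 0.43 and Grhl2, a transcription factor of epithelial genes, by -0.02. Lgals4, the intestinal lectin galectin-4, was at -0.38, -0.43 and -0.31 against -0.71, -0.67 and -0.80. Its 3 probes were all lower in knockdown-primed cells without overlap, by -0.35, -0.36 and -0.43, and none passed the test. The cell-surface mucin Muc1 was at -3.15, -5.09 and -5.16 against -4.84, -4.86 and -5.44. Control-primed replicate 1 stood apart, and the difference of -0.58 became 0.08 without it.

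**Figure D2:**
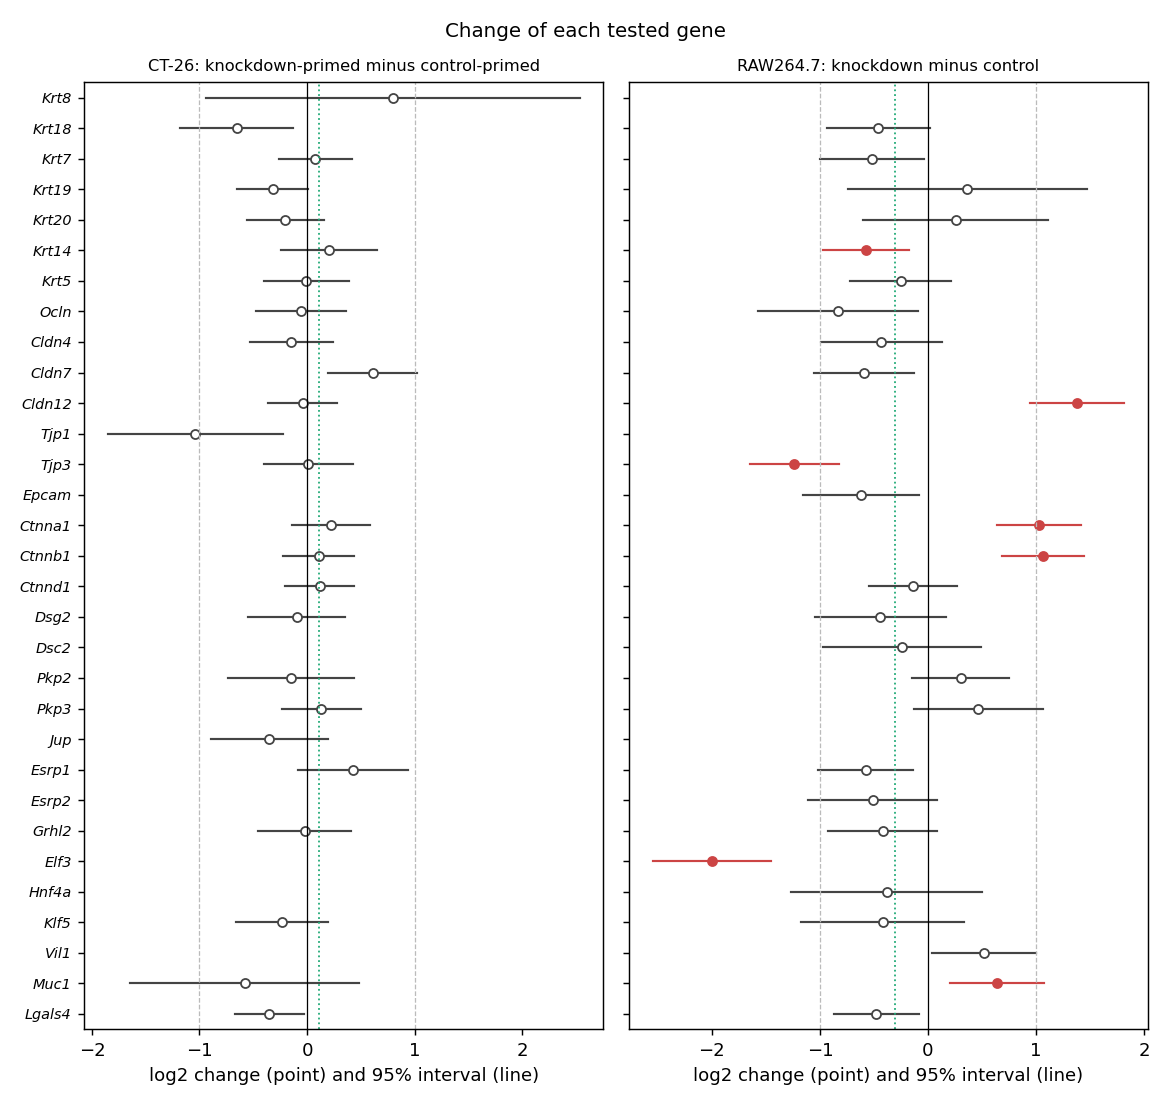
Log2 change (horizontal axis) with its 95% interval for each gene tested in CT-26 cells (left) or RAW264.7 cells (right). Filled red points passed a limma adjusted p of 0.05, the green dotted line is the median of all genes tested and the grey dashed lines mark a 2-fold change. No gene passed on the left, and 7 of 28 passed on the right.

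In RAW264.7 cells 7 of 28 tested genes passed after Abhd5 knockdown. Cldn12, Ctnna1 and Ctnnb1 rose, and Elf3, Tjp3 and Krt14 fell. Muc1 passed with a positive value but was below background on all control arrays. The 7 were 25% of the genes tested, where 22.8% of all 25306 genes passed (7.93% higher and 14.9% lower), so the count lay near the background. The median change was -0.42, against -0.30 over all genes tested, and 14 of 28 genes had groups that did not overlap, against 52% of all. Scaling moved the whole distribution. The median of all genes was -0.09 with arrays centred on their median and -0.08 after quantile normalization, and calls split into 2007 higher and 3769 lower in the chosen scaling, 2382 and 1427 after median centring and 2172 and 1860 after quantile normalization. Changes are therefore also given relative to the median of all genes. With the slide as a block 2 of the 7 remained, Cldn12 and Elf3, where 4.59% of all genes passed. Among the 4 arrays of slide 2 alone, where the lone control array was assumed to vary like the others, 6 remained, all but Krt14, where 7.35% of all genes passed. Without control replicate 3, the control array of slide 2, 11 genes passed, where 29.1% of all genes did.

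Both catenins that join cadherins to actin rose. Ctnna1 was at 1.69, 1.79 and 1.98 in controls and at 2.88, 2.85 and 2.81 after knockdown, and Ctnnb1 at 2.21, 2.02 and 2.21 against 3.22, 3.22 and 3.20. All knockdown arrays lay above all control arrays for both genes. The changes were 1.03 ± 0.17 (limma adjusted p = 0.00562) and 1.07 ± 0.17 (0.00402), or 1.33 and 1.37 above the median of all genes. With the slide as a block they were 0.87 and 1.01, with adjusted p-values of 0.0977 and 0.0621. Ctnnd1 did not pass, with a change of -0.14, and Cdh1 was called on 1 of the 6 RAW264.7 arrays.

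Tight junction genes went in both directions. Cldn12 was at -2.23, -1.91 and -1.76 in controls and at -0.52, -0.54 and -0.69 after knockdown. It rose 2.60-fold (log2 1.38 ± 0.19, limma adjusted p = 0.0022, 1.69 above the median of all genes), and by 1.17 under the slide block (adjusted p = 0.0447). Tjp3 was at 1.14, 1.14 and 0.98 against -0.01, -0.06 and -0.37, and fell by 1.24 on the log2 scale (SE 0.18, adjusted p = 0.00306, -0.93 relative to all genes). A block for the slide left -1.13 (adjusted p = 0.0537). Ocln (-0.83), Cldn7 (-0.59) and Cldn4 (-0.43) did not pass, although the second Cldn7 probe did, at -0.95 (adjusted p over probes 0.0319).

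Elf3, an ETS factor of epithelial genes, showed the lowest value among the members. It was at -3, -2.22 and -2.64 in control cells and at -4.52, -4.46 and -4.88 after knockdown, with no overlap and with every array well above background. It fell by 2 on the log2 scale, or 4-fold (SE 0.24, limma adjusted p = 0.00106, -1.70 relative to all genes), and by 1.98 under the slide block (adjusted p = 0.0166). Krt14, a type I keratin of basal epithelial cells, was at -1.27, -0.93 and -1.12 against -1.66, -1.65 and -1.72. Its change of -0.57 ± 0.17 (adjusted p = 0.0469) was -0.27 relative to all genes, and neither median centring (adjusted p = 0.133) nor quantile normalization (0.0562) kept the call. Muc1 was at -6.30, -6.60 and -6.82 in controls, none of them well above background, and at -5.92, -5.95 and -5.92 after knockdown. Its change of 0.64 (adjusted p = 0.0451) has no interpretable fold, since the lowest signal called well above background averaged -5.36 over the control arrays (taking the probe's own where higher), above the knockdown mean of -5.93, and with normexp background correction it was -0.31. No desmosome gene passed, with Pkp2 at 0.30, Pkp3 at 0.47, Dsg2 at -0.44 and Dsc2 at -0.24.

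Probes of the same gene differed in RAW264.7 cells for Lgals4. The probe used for the gene (chromosome 7, 29626658 to 29626717, mm9) changed by -0.48 and did not pass. A probe that overlaps it (29626661 to 29626720) fell by 1.45 on the log2 scale (limma adjusted p over probes 0.00802) and the third (29626555 to 29626614) by 1.53 (0.00194). The mouse genome can hold a close copy of Lgals4, Lgals6, and whether these probes also bind its RNA was not tested. For Esrp1, the probe used (chromosome 4, 11284629 to 11284688, mm9) changed by -0.58 and did not pass, and the second probe (11260208 to 11260267) fell by 1 log2 unit (adjusted p over probes 0.0452).

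**Figure D3:**
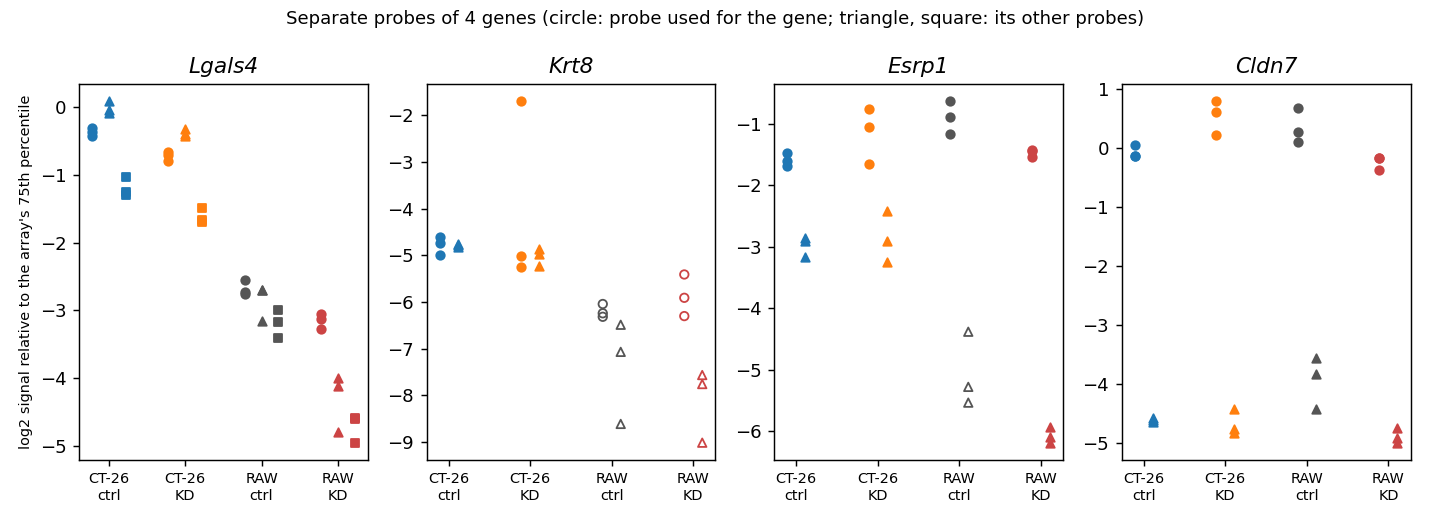
Log2 signal relative to the 75th percentile of the array (vertical axes, each with its own range) for every probe of Lgals4, Krt8, Esrp1 and Cldn7 in the 4 groups. Circles are the probe used for the gene, triangles and squares its other probes, each point is 1 array and open symbols mark groups not well above background on all 3 arrays. A lone circle marks Krt8 at -1.69 in knockdown-primed CT-26 replicate 3.

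The cell lines themselves differed widely. Between control-primed CT-26 and control RAW264.7 cells 28 genes were tested, 11 were higher and 10 lower in CT-26 (75%), where 67.6% of all 25412 genes passed (25.3% higher, 42.3% lower). The groups did not overlap for 24 of the 28, against 74.4% of all. The median of all genes was -0.41, and -0.60 or -0.17 after median centring or quantile normalization. Krt20 was higher in CT-26 by 10.31 ± 0.30 on the log2 scale (limma adjusted p = 8.22e-08), with only 1 of 3 RAW264.7 control arrays well above background, so its size depends on dim signals there. It lay between 9.03 and 10.67 over the alternatives. Tjp1 was at least 230.0-fold higher in CT-26 (adjusted p = 1.50e-06), being below background on all 3 RAW264.7 control arrays, at -6.87, -6.73 and -8.85. Klf5 was higher by 6.45, Krt18 by 5.73 and Cldn12 by 4.25, all with adjusted p-values of 2.02e-06 or smaller. Lgals4 (2.31) and Ctnna1 (1.56) followed. Krt8 (1.42) and Krt19 (1.29) also passed, but each was well above background on only 1 of 3 RAW264.7 control arrays. With normexp background correction they were at 0.10 and 0.23 and did not pass, and Krt19 lost its call in 8 of 16 alternatives. Muc1 and Jup, below background in RAW264.7 controls, were at least 1.86-fold and 1.03-fold higher. For Muc1 the bound was 1.18-fold without control-primed CT-26 replicate 1.

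Other genes stood higher in the macrophage-like line. Pkp2, plakophilin-2 of desmosomes, was at 1.53, 1.05 and 1.26 in RAW264.7 controls and at -5.12, -4.27 and -4.09 in control-primed CT-26 cells. That was a difference of -5.77 ± 0.29 (limma adjusted p = 1.36e-06) without overlap. Elf3 was at least 16.4-fold lower in CT-26, where it was below background on all 3 arrays. Tjp3 (-3.36) and Esrp2, a relative of Esrp1 (-3.32), were also lower, and so was the hepatic and intestinal nuclear receptor Hnf4a (-1.46). Krt5 (-1.03), Ocln (-0.97), Esrp1 (-0.69), Krt14 (-0.62) and Krt7 (-0.56) differed less, by between -0.62 and -0.15 relative to the median of all genes. Krt7 lost its call in 10 of 17 alternatives, Krt14 in 8 of 17, Ocln in 5 of 16 and Esrp1 in 3 of 17. Krt5 kept its call in all 17. For Esrp1 the second probe gave 2.09 in the opposite direction. Without the slide 1 controls only 1 RAW264.7 control array remained, so the calls of that fit are not counted here.

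**Figure D4:**
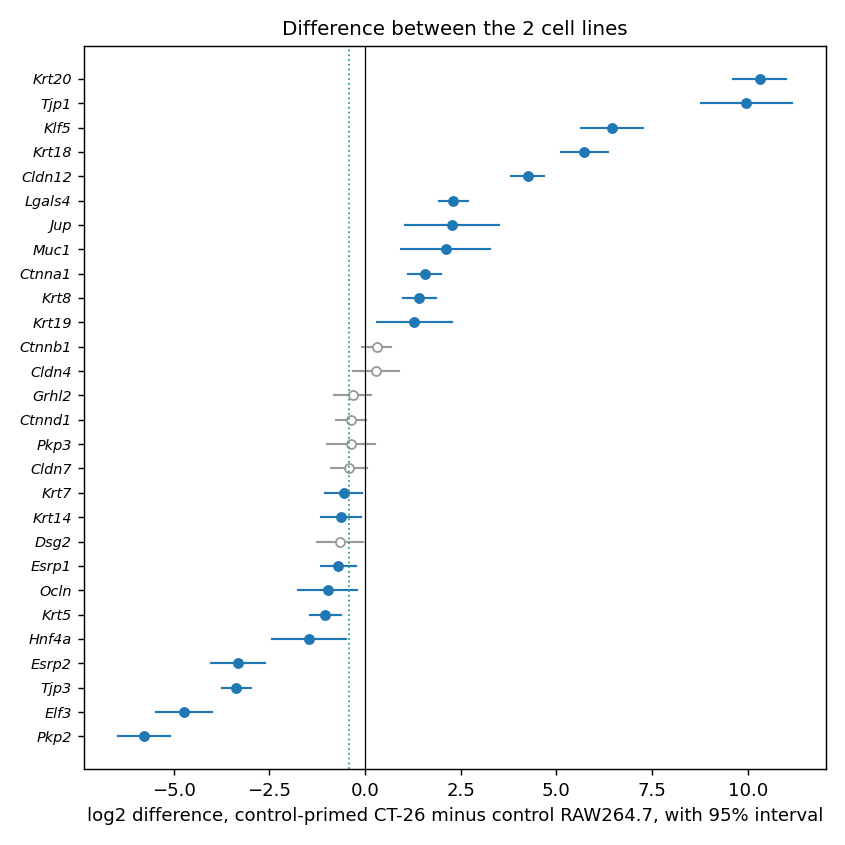
Log2 difference between control-primed CT-26 and control RAW264.7 cells (horizontal axis) with its 95% interval for the 28 genes tested, in order of size. Filled points passed a limma adjusted p of 0.05 and the green dotted line is the median of all genes. Krt20 and Tjp1 lie at the upper end, and Elf3 and Pkp2 at the lower end.

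The change in CT-26 cells differed from that in RAW264.7 cells for 8 of 31 genes tested (25.8%), 5 higher and 3 lower, where 31.4% of all 26887 genes passed (24% higher, 7.43% lower). The median of all genes was 0.39 and fell to 0.10 after quantile normalization, where all calls split into 3884 higher and 2745 lower in place of 6457 and 1998; after median centring they split into 4490 and 2350. Cldn12 (-1.42), Ctnnb1 (-0.96) and Ctnna1 (-0.80) were lower in this contrast, and Elf3 (2.03), Tjp3 (1.25), Cldn7 (1.2), Esrp1 (1) and Krt14 (0.78) higher. For Elf3 the CT-26 arrays were all below background, so its value rests on the RAW264.7 arrays. With the slide as a block, or without the slide 1 controls, 4 of the 8 passed in each case, where 8.88% and 13.9% of all genes passed, and without control-primed CT-26 replicate 3 it was 5.

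Further epithelial genes, and repressors of the epithelial state, were read from 6 lists that hold none of the 39. In CT-26 cells no gene of these lists passed the test between the priming groups, beside a background of 6.32% of all genes. The counts were 0 of 16 tested for other tight junction and polarity genes, 0 of 12 for other adherens junction and desmosome genes and 0 of 17 for other keratins. They were 0 of 13 for other epithelial transcription factors, 0 of 9 for repressors of the epithelial state and 0 of 11 for surface and trafficking genes. The medians of these lists lay between -0.16 and 0.26.

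In RAW264.7 cells the same lists held calls in both directions. Of 21 tight junction and polarity genes 2 rose, the claudins Cldn8 (2.57, with 1 of 3 control arrays well above background) and Cldn11 (1.87), and 2 fell, Cldn6 (-1.06) and Cldn5 (-0.90). Of 14 adherens junction and desmosome genes 2 fell, Plekha7 (-1.75) and the adhesion receptor Nectin1 (-0.99). Of 17 other keratins Krt23 (2.83, with 2 of 3 control arrays well above background) rose, and Krt42 (-0.82) and Krt10 (-0.75) fell. Grhl3, a relative of Grhl2, passed among 15 transcription factors (0.85) but was below background on all control arrays, so it has no interpretable fold. Of 4 repressors tested Snai1 (1.77, with 2 of 3 control arrays well above background) and Zeb2 (0.96) rose and Tcf4 (-0.59) fell. Of 15 surface and trafficking genes 4 rose and 3 fell, among them Cd24a (3.06), Itgb4 (1.30), Rab25 (0.92) and the membrane protease gene St14 (-0.95). Cd24a and Rab25 were well above background on 1 of 3 control arrays, so the size of their change depends on dim signals. The lists held 1 to 7 calls each, beside a background of 22.8% of all genes.

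Markers of other cell types were read beside these values. In control-primed CT-26 cells all 9 repressors of the epithelial state were well above background on every array, beside 71.4% of all names. Compared with control RAW264.7 cells 8 of 9 were higher, with Twist1 at least 413.2-fold and Zeb1 at least 54.0-fold higher. In that comparison 67.6% of all genes passed and 25.3% were higher. All 10 mesenchymal or fibroblast markers were detected on every CT-26 array, but 6 also on every RAW264.7 control array and 8 on every RAW264.7 knockdown array. The shares of all names were 71.4% in control-primed and 64.0% in knockdown-primed CT-26 cells. In RAW264.7 cells they were 61.4% in controls and 72.7% after knockdown. Against RAW264.7 controls 8 of the 10 markers were higher in control-primed CT-26 cells, where 25.3% of all genes were higher. They ranged from Vim (0.501) to Fn1 (fibronectin, at least 1026-fold). S100a4 was lower (-0.725) and Thy1 (0.328) did not pass. The log2 of the summed linear signal of the 10 markers was 7.81 to 7.93 in control-primed and 7.84 to 8.29 in knockdown-primed cells. The brightest probes weigh most in such a sum. Between those groups 1 of the 10 passed, Pdgfrb (-0.65, limma adjusted p = 0.039), beside 6.32% of all genes. Of 12 macrophage markers 9 were detected on every control-primed array and 8 on every knockdown-primed one, beside 71.4% and 64.0% of all names. The log2 of the summed linear signal of the 12 markers was 5.67 to 5.82 and 5.70 to 6.15, against 8.03 to 8.25 over the RAW264.7 arrays. The integrin gene Itgam alone made up 89.2% to 94.7% of that sum on the CT-26 arrays, and without it the sums were 2.40 to 2.57 and 1.91 to 2.30, against 7.51 to 7.89 over the RAW264.7 arrays. The macrophage markers Spi1 and Adgre1 were near background in CT-26 cells, called on 0 and 1 of 6 arrays, and Itgam was at 5.60 and 5.77 in the CT-26 groups. Of the 9 tested, Cd68 passed between the CT-26 groups (-0.83, adjusted p = 0.0206). In RAW264.7 cells 3 of the 12 macrophage markers passed, Adgre1 (2.86), Mpeg1 (2.77) and Lyz2 (1.88), all higher after knockdown, beside 22.8% of all genes. The part of other cells in the values of the 39 genes was not tested.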

How the data were processed

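Total RNA of 12 samples was measured on 1-colour Agilent mouse arrays. The scanner files were made with Agilent Feature Extraction 10.7.3.1, per the file headers, and hold, as deposited, spot intensity values corrected for background within the array, with flags for spots well above background; the probe coordinates are of the mm9 build. The table of processed values deposited by the authors held log2 values for RAW264.7 and linear intensity for CT-26, as read from the values. It was used only as an alternative, since 5 of 6 CT-26 columns matched another replicate of the same group.

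Control spots and outlier spots (172 to 272 per array) were left out. Signals were put on the log2 scale and the array's percentile 75 was subtracted. Each gene was read from its brightest probe over 12 arrays among probes detected on every array of a group, and entered a comparison where that probe was detected on every array of one of its groups. limma 3.58.1 (R 4.3.3; linear model, empirical Bayes, two-sided, Benjamini-Hochberg adjustment, threshold 0.05) was fitted over all such genes on the arrays compared, and the difference between the changes over all 12. A fold against a group below background is a lower bound, taken against the array's detection limit or the probe's signal there, whichever was higher. Fits were tested on simulated data. Replicate numbers did not pair the samples: same-numbered samples deviated together with correlations of -0.209 to 0.042.

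All 39 members are accounted for by name. Values on every array are given for members past the threshold in either cell line and for Krt20, Ctnna1, Klf5, Tjp1, Ctnnb1 and Krt18, and further genes of each list by smallest p, up to 4; others were chosen after their values were seen. The members and lists were chosen with earlier results of these data known. Alternatives were another scaling, background correction, filter, probe rule, block and single arrays left out. The number of arrays limits the precision.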

Additional observations from a re-analysis of the deposited data

Results flagged for a closer look

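For 8 genes the change in CT-26 cells differed from that in RAW264.7 cells by limma's test of the difference itself (adjusted p under 0.05, n = 3 per group). Tested as CT-26 change minus RAW264.7 change on the log2 scale, Cldn12 was at -1.42, Ctnnb1 at -0.96 and Ctnna1 at -0.80, each with a rise in RAW264.7 cells. Elf3 was at 2.03 and Tjp3 at 1.25, with a fall in RAW264.7 cells, but Elf3 was below background on all CT-26 arrays. Cldn7 was at 1.2, Esrp1 at 1 and Krt14 at 0.78. Among all genes tested 31.4% passed, and relative to the median of all genes Krt14 was at 0.38 and Esrp1 at 0.61. Of the RAW264.7 controls 2 of 3 lay on another slide than the knockdown arrays. A slide block left 4 of the 8, where 8.88% of all genes passed. These were Cldn12, Ctnnb1, Elf3 and Tjp3, which kept the call under every alternative that tested them. Krt14 lost it in 13 of 23 alternatives, Esrp1 in 11, Ctnna1 in 3 and Cldn7 in 2.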

How the results depend on the processing

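In CT-26 cells the count of 0 held under every alternative except with 1 array left out, where it was 0 to 2 (0.371% to 12.1% of all genes passed). In RAW264.7 cells the 7 calls became 2 with the slide as a block (4.59% of all genes) and 11 with the mean of all probes (21.2%). With 1 array left out they numbered 5 to 11 (6.64% to 29.1%). Between the cell lines the 21 calls became 12 where a probe had to be well above background on every array, since fewer genes (17) were tested. There 69.4% of all genes passed. The calls numbered 16 to 23 with 1 array left out (55.7% to 69.1% of all genes). For the difference between the changes the 8 calls became 14 with normexp background correction, where 45.4% of all genes passed. They numbered 5 to 11 with 1 array left out (18.9% to 37.6%) and 4 with the slide as a block (8.88%). That block was chosen after seeing the data, as were the fits without the control arrays of slide 1 for this contrast and between the cell lines. The cause of these shifts was not tested. The replicate block, whose numbers did not pair the samples, gave 0, 5, 19 and 8 calls in the order above. Of all genes 3.63%, 18.9%, 61.9% and 27.6% passed there.

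The sign turned for Esrp1 between the cell lines (0.70 with the mean of all probes, 2.09 with its other probe), for Dsg2 (0.045) and Pkp3 (-0.051) in RAW264.7 cells with the slide as a block and on slide 2 alone, and there for Muc1 (-0.31) and Vil1 (-0.26) with normexp. Log2 changes of genes below background on all arrays of a group are limited by the scanner's detection, which differed between slides.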
